A study of Mus musculus with 15 samples.

Results

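Bone morphogenetic proteins (BMPs) and the secreted proteins that bind them were followed through 5 ligand genes (*Bmp2*, *Bmp3*, *Bmp4*, *Bmp6* and *Gdf5*) and 5 antagonist genes (*Grem1*, *Nog*, *Chrd*, *Chrdl1* and *Chrdl2*). These 10 were picked by name out of the 24134 genes listed in each of 2 count tables, and all 10 were present in both. Every one also passed the filter on low counts in every comparison.

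The cells were primary articular chondrocytes at passage 0, taken from the femoral condyles and tibial plateaus of ICR mice in the first week after birth and grown in DMEM with fetal bovine serum. Of the 6 libraries with siRNA, 3 received a control siRNA (siCtrl) and 3 a combination that targets *Tnks* plus *Tnks2* (siTnks/2), which encode the tankyrases, enzymes that attach poly(ADP-ribose) to their target proteins. A second table has 9 libraries of cells exposed for 108 h to DMSO, the vehicle, or to one of the tankyrase inhibitors XAV939 and IWR-1 at 10 μM, with 3 libraries per group. Replicates are biological by the design, and the time between transfection and harvest was not given in the sources used here. The comparisons ask how the loss or the inhibition of tankyrase changes the supply of BMP ligands and of their antagonists in cartilage cells.

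BMPs are dimeric ligands of the TGF-β superfamily that bind pairs of type I and type II serine/threonine kinase receptors, which phosphorylate SMAD1, SMAD5 and SMAD9 and so turn on targets such as the *Id* genes. Secreted antagonists (gremlin, noggin, chordin and the chordin-like proteins) hold the ligands outside the cell and keep them from the receptors. In cartilage, BMPs drive chondrocyte differentiation and growth plate maturation, GDF5 marks the cells that form joints, and antagonists such as gremlin and noggin are made by joint cartilage itself.

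Each library held between 26857070 and 36615194 counts. The siRNAs lowered *Tnks* by 1.81 and *Tnks2* by 1.10 on the log2 scale (edgeR quasi-likelihood test, adjusted p 0.00569 and 0.00384), as the labels say. Summed over 10 chondrocyte markers, CPM (counts per 1000000 counts of TMM-scaled library size) lay between 27664 and 201498 in all libraries, and *Col2a1* was never below 20881 CPM. The summed 6-gene fibroblast list was 12047 to 15094 CPM in DMSO, 6250 to 8148 with XAV939, 5773 to 8676 with IWR-1, 5291 to 9049 with siCtrl and 2788 to 7830 with siTnks/2. Of the lists of other cell types, the leukocyte genes summed to 4.51 to 15.8 CPM, mostly *Cd68* (2.33 to 10.2 CPM), the muscle genes to 0.449 to 7.54 CPM, and the endothelial genes to 0.835 to 3.11 CPM except in siTnks/2 replicate 2 (8.56 CPM). The defining genes *Ptprc*, *Cd3e* and *Myod1* did not exceed 0.157, 0.0314 and 0.153 CPM. Pairs of libraries of one group correlated at 0.983 or more, and the lowest values included those of siTnks/2 replicate 2 (0.983 and 0.987), DMSO replicate 3 (0.985 and 0.989) and XAV939 replicate 2 (0.988 and 0.989). Levels in bulk RNA cannot tell fewer cells of a type from less RNA per cell.

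On a scale divided by exon length (CPM per kb of merged exons), the ligand and antagonist transcripts differed widely in abundance. In DMSO cultures *Gdf5* (30.0 ± 3.88, SD, n = 3) and *Grem1* (29.6 ± 12.7) led and did not differ beyond their spread, followed by *Bmp4* (11.5 ± 2.24) and *Nog* (3.17 ± 0.407). Lower down, *Chrd* (1.25 ± 0.118) and *Bmp2* (1.20 ± 0.108) could not be ordered, and *Bmp3* (0.392 ± 0.0356), *Bmp6* (0.251 ± 0.0483) and *Chrdl2* (0.130 ± 0.0814) were the scarcest. With siCtrl the order was *Bmp4* (26.1 ± 2.53), *Grem1* (18.3 ± 5.58) and *Gdf5* (7.58 ± 1.38), after which *Chrdl1* (5.97 ± 1.75) and *Nog* (5.93 ± 0.532) lay within each other's spread. The 2 tables were scaled separately, so the orders are set side by side and not tested against each other.

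Promoter sequence was available for *Bmp4*, *Bmp6*, *Chrd* and *Grem1* only. For 3 of these, sequence around the transcription start is shown, since *Bmp4* and *Chrd* were lower with both inhibitors and *Grem1* was the most abundant antagonist transcript. *Bmp3* and *Gdf5* were also lower with both inhibitors, but their windows were not available. The windows run from 250 bases before to 50 bases after a start in the RefSeq annotation of GRCm38.p6. That is the patch release of the mm10 build to which the reads were aligned. The *Chrd* window lies inside the gene span given below (chr16:20731425-20742384), so its start is not the first base of that span. Sequence around that first base was not examined. Capitals mark GGCGCC, a GC-rich element bound by BMP-type SMADs.
Bmp4 promoter, chr14:46390620-46390919, minus strand: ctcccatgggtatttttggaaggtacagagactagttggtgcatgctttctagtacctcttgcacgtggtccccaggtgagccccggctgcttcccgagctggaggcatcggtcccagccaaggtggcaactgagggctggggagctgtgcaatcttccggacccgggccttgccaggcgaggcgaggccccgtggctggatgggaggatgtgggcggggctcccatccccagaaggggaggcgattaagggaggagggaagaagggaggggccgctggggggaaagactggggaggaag
Chrd promoter, chr16:20732877-20733176, plus strand: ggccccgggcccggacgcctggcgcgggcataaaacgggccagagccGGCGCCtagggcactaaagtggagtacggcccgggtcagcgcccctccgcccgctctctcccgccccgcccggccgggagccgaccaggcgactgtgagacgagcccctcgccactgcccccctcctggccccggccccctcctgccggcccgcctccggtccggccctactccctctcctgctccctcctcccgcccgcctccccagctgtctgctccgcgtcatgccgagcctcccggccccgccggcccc
Grem1 promoter, chr2:113758599-113758898, minus strand: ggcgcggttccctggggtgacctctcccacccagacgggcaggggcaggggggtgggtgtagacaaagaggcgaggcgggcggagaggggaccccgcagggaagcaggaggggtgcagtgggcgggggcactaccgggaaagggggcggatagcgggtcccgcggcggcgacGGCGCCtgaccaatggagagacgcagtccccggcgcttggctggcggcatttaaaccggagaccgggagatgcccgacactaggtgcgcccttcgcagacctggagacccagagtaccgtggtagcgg
These windows held 64% (*Bmp4*), 78.3% (*Chrd*) and 70.7% (*Grem1*) G and C, and that of *Bmp6* held 69.3%, against a median of 52.7% and an upper quartile of 61.7% over 32851 mouse promoter windows. Both strands were searched for CTTTGA (the TCF/LEF core), AACAAT (a SOX core), GGCGCC and TATAAA (the TATA box), none of which contains another. Only GGCGCC was found in the 4 windows, beginning 78 bases upstream of the start in *Grem1* and 203 bases upstream of the start used for *Chrd*. It occurs in 11.9% of all windows, and the other 3 motifs occur in 16.0%, 10.7% and 13.6%. A letter match is a description and not evidence of binding, and the same holds for its absence.

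In the knockdown, 3 of the 10 members rose and none fell at an adjusted p under 0.05 in edgeR's quasi-likelihood test, namely *Gdf5*, *Grem1* and *Chrdl2*. At an unadjusted p under 0.05 in that test, 2 members were lower (*Bmp4* and *Chrd*), and *Bmp6* and *Nog* were also higher. The share of all genes at that looser limit was not taken, but *Col2a1*, with an unadjusted p of 0.04995, ranked 4861 of 13672 genes by p. At the adjusted p under 0.05, 18% of the 13672 genes tested were called, 10.4% higher and 7.61% lower. With XAV939, 4 members fell (*Bmp3*, *Bmp4*, *Gdf5* and *Chrd*) and none rose, against 17.4% of 13873 genes called, 7.57% higher and 9.85% lower, and 0 members were higher at an unadjusted p under 0.05 or in DESeq2. With IWR-1, the same 4 genes fell and *Bmp6*, *Chrdl1* and *Chrdl2* rose, against 36.4% of genes called, 16.2% higher and 20.2% lower. Both inhibitor comparisons use the same 3 DMSO libraries, so their shared calls are not independent. The 10 members had a median log2 fold change of 0.52 after knockdown, -0.25 for XAV939 and -0.49 for IWR-1, and over all genes tested it was within 0.02 of 0. The median absolute change was 0.89, 0.60 and 1.70 for the members and 0.21, 0.24 and 0.31 for all genes.

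Same-numbered libraries varied together, and fitting the replicate number as a block moved many more genes past the threshold. In that fit 9 of the 10 members were called with knockdown, 7 higher and 2 lower, against 34.6% of all genes, 18.1% higher and 16.5% lower. It called 5 members with XAV939 and 8 with IWR-1, against 33.4% and 47.5% of all genes. DESeq2 called 5 members with knockdown, 4 higher and 1 lower, against 23.2% of all genes, 12.4% higher and 10.7% lower. At the stricter limits of a fold above 3 and an adjusted p under 1e-05, 0 members were called with knockdown and XAV939 and 4 with IWR-1 (*Chrdl1* higher, *Bmp3*, *Bmp4* and *Gdf5* lower), against 0%, 0.00721% and 1.05% of all genes. Without siTnks/2 replicate 2 the knockdown count was also 5, 4 higher and 1 lower, and without DMSO replicate 3 the inhibitor counts stayed at 4 and 7. The share of all genes called was not taken in fits that left out a library, so these counts have no background to be read against. The blocked values stand below beside each gene whose call they changed.

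**Figure D1:**
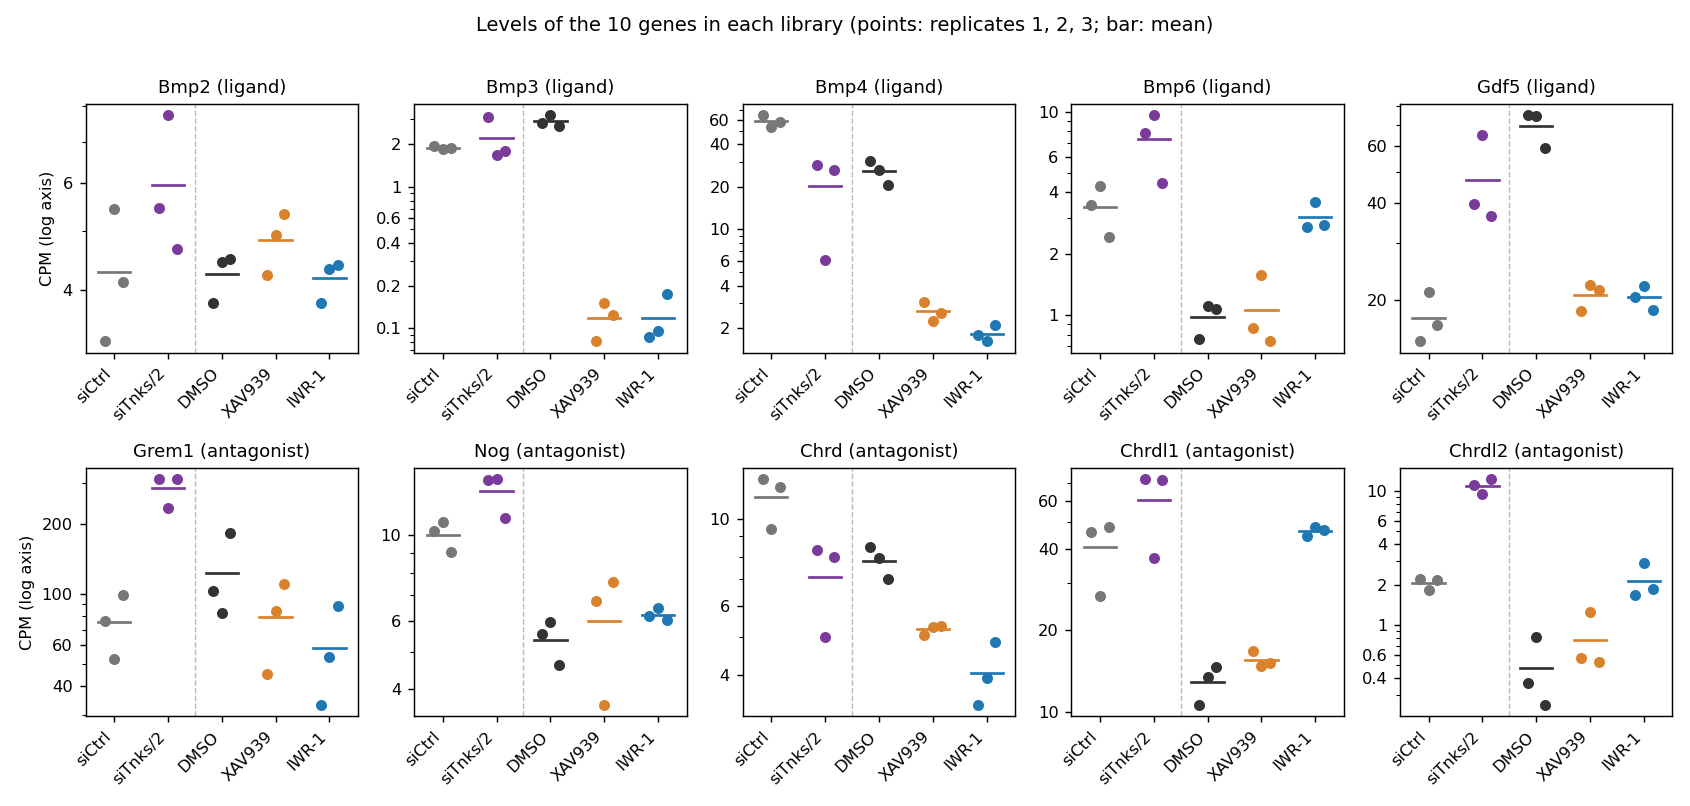
Level of each of the 10 genes (CPM, log axis, a separate scale per gene) in the 15 libraries, grouped by treatment, with points for replicates 1 to 3 from left to right, a bar for the mean and a dashed line between the separately scaled tables. *Bmp3*, *Bmp4* and *Gdf5* lay lower in all 6 inhibitor libraries than in the 3 DMSO libraries, and *Grem1* and *Chrdl2* lay higher in all 3 siTnks/2 libraries than in the 3 siCtrl libraries.

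Of the ligands, *Bmp4* (chr14:46383525-46390669, minus strand), which signals through BMPR1A and BMPR1B and promotes cartilage matrix production, was the most affected abundant transcript. In DMSO replicates 1, 2 and 3 it stood at 30.7, 26.4 and 20.6 CPM. With XAV939 the 3 libraries held 3.05, 2.25 and 2.56 CPM, and with IWR-1 they held 1.77, 1.60 and 2.09 CPM. All 6 inhibitor libraries were below every DMSO library. The log2 fold change was -3.30 ± 0.19 (SE) with XAV939 and -3.83 ± 0.20 with IWR-1 (edgeR quasi-likelihood test, adjusted p 1.33e-05 and 1.22e-06), which is 9.83-fold and 14.2-fold lower.

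After knockdown, *Bmp4* went from 64.4, 53.1 and 58.1 CPM to 28.8, 6.02 and 26.5 CPM. The groups did not overlap, and siTnks/2 replicate 2 was far below its companions. The log2 fold change of -1.52 ± 0.49 had an adjusted p of 0.0710 in edgeR's quasi-likelihood test and was not called. With the replicate block it was -1.68 (adjusted p 0.0231), and without siTnks/2 replicate 2 it was -1.08 (adjusted p 0.00167), so the gene was called in both of these fits. In that replicate the fibroblast list summed to 2788 CPM and the chondrocyte list to 201498 CPM, the lowest and the highest of the siRNA libraries. The endothelial list summed to 8.56 CPM there against 1.04 to 2.17 CPM in the other siRNA libraries, with 89 counts of *Pecam1* against 0 to 7. The part of these cell type markers in its *Bmp4* level was not tested. On the opposite strand *Bmp4* overlaps the coding gene *Gm15217*, and the strand setting of the counting was not given in the sources used here, so reads of the pair may be shared.

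*Gdf5* (chr2:155941023-155945367, minus strand), the ligand that marks the developing joint, moved in opposite directions in the 2 tables. DMSO libraries held 74.9, 74.7 and 59.2 CPM, and XAV939 lowered these to 18.6, 22.3 and 21.5 CPM. With IWR-1 the values were 20.5, 22.1 and 18.7 CPM, so every inhibitor library held less than a DMSO library. The falls of 1.75 ± 0.13 (SE) and 1.77 ± 0.13 on the log2 scale, 3.35-fold and 3.41-fold, passed the edgeR test (adjusted p 3.51e-05 and 4.99e-06). In the siRNA table *Gdf5* instead rose from 14.9, 21.1 and 16.7 CPM to 39.8, 65.1 and 36.5 CPM. Each siTnks/2 library was above each siCtrl library, with a log2 fold change of 1.42 ± 0.24 (edgeR, adjusted p 0.0127). That call was lost without siCtrl replicate 1 (adjusted p 0.0584) or replicate 3 (adjusted p 0.0578), where the log2 fold change was 1.32 and 1.39. *Gdf5* overlaps the opposite-strand coding gene *Gm15557*.

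*Bmp3* (chr5:98854415-98884053, plus strand), an atypical family member known to oppose the action of other BMPs, nearly disappeared from the inhibitor libraries. DMSO replicates held 2.81, 3.20 and 2.70 CPM, from 92, 110 and 86 counts. XAV939 libraries held 3, 4 and 4 counts and IWR-1 libraries 3, 3 and 6 counts. Over the pooled counts, scaled for library size, the DMSO level was 25.4 times that with XAV939 (95% exact interval 14.0 to 51.5) and 24.3 times that with IWR-1 (13.7 to 47.5), intervals that cover counting error only. The fitted log2 fold changes were -4.61 ± 0.30 and -4.56 ± 0.29 (edgeR, adjusted p 1.83e-05 and 2.89e-06). With knockdown the gene was not called. The siCtrl libraries held 1.93, 1.85 and 1.87 CPM, and the siTnks/2 libraries held 3.12, 1.68 and 1.79 CPM, which overlap. The log2 fold change was 0.22 with a 95% interval from -0.40 to 0.85.

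*Bmp6* (chr13:38345716-38500314, plus strand), a ligand made by maturing chondrocytes, separated the inhibitors from each other. Its 3 DMSO libraries held 0.762, 1.11 and 1.07 CPM. XAV939 libraries held 0.862, 1.58 and 0.741 CPM and overlapped them, whereas IWR-1 libraries held 2.70, 3.59 and 2.78 CPM and did not. The IWR-1 rise of 1.62 ± 0.28 on the log2 scale passed the edgeR test (adjusted p 0.00112), and the XAV939 value was 0.09 ± 0.31 (adjusted p 0.869, 95% interval -0.59 to 0.76). In the knockdown *Bmp6* stood at 7.88, 9.59 and 4.44 CPM against 3.48, 4.32 and 2.42 CPM with siCtrl. The siTnks/2 libraries were all above the siCtrl libraries, yet the log2 fold change of 1.10 ± 0.33 was not called (edgeR, adjusted p 0.0579). It was called with the replicate block (1.08, adjusted p 0.00385), with DESeq2 (1.10, adjusted p 0.00915) and without siTnks/2 replicate 3 (1.36, adjusted p 0.0233). The gene overlaps the opposite-strand coding gene *Txndc5*.

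*Bmp2* (chr2:133552159-133562896, plus strand), a potent inducer of chondrogenesis and osteogenesis, was level across the drug table. Values lay between 3.81 and 4.49 CPM in DMSO, between 4.23 and 5.34 with XAV939 and between 3.81 and 4.41 with IWR-1, and the groups overlapped. The 95% intervals of the log2 fold change were -0.15 to 0.52 with XAV939 and -0.36 to 0.31 with IWR-1. With siCtrl the libraries held 3.30, 5.43 and 4.13 CPM, and with siTnks/2 they held 5.45, 7.74 and 4.67 CPM. The groups overlapped, although each siTnks/2 library was above the siCtrl library of its own number. The log2 fold change of 0.48 ± 0.25 was not called (edgeR, adjusted p 0.225) and was called with the replicate block (0.47, adjusted p 0.0485).

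Among the antagonists, *Grem1* (chr2:113748675-113758648, minus strand) encodes gremlin, which binds BMP2, BMP4 and BMP7. It had the largest gain in abundance with knockdown, from 76.3, 52.3 and 98.6 CPM to 311, 233 and 312 CPM. No siTnks/2 library came near the siCtrl range, and the log2 fold change was 1.91 ± 0.24 (3.77-fold; edgeR, adjusted p 0.00603). The call was kept in each of the 6 fits that left out 1 library. Neither inhibitor raised the transcript. DMSO libraries held 103, 82.9 and 182 CPM, XAV939 libraries 45.2, 84.1 and 110 CPM, and IWR-1 libraries 33.1, 53.4 and 88.5 CPM. The groups overlapped, replicate 3 being the highest of each.

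For *Grem1*, the log2 fold change was -0.62 ± 0.40 with XAV939 and -1.07 ± 0.41 with IWR-1 (edgeR, adjusted p 0.315 and 0.0616), and neither was called. Both were called with the replicate block (-0.65, adjusted p 0.0162, and -1.13, adjusted p 0.000282). Within pairs of the same number the XAV939 log2 ratios were -1.18, 0.02 and -0.73, and those of IWR-1 were -1.63, -0.63 and -1.04. The IWR-1 change was also called without DMSO replicate 2 (-1.29, adjusted p 0.0390), without IWR-1 replicate 3 (-1.52, adjusted p 0.020) and with no filter on low counts (-1.08, adjusted p 0.0385). Beside these values, 3 of the 6 genes of the fibroblast list were called lower with each inhibitor (*Col1a1*, *Col3a1* and *Pdgfra*) and *Postn* was called higher. The part of such cells in the changes of *Grem1*, *Bmp3*, *Bmp4* and *Gdf5* was not tested.

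*Chrdl2* (chr7:100006404-100034728, plus strand), a chordin-like antagonist described in cartilage, rose most of all members with knockdown on the log2 scale. The siCtrl libraries held 2.21, 1.81 and 2.17 CPM and the siTnks/2 libraries 11.1, 9.52 and 12.3 CPM. These groups stood well apart, with a log2 fold change of 2.41 ± 0.15 (5.30-fold; edgeR, adjusted p 0.00224). In DMSO the transcript was scarce, at 0.366, 0.815 and 0.251 CPM. IWR-1 brought it to 1.69, 2.89 and 1.86 CPM, above all DMSO libraries, a log2 change of 2.14 ± 0.44 (4.41-fold; edgeR, adjusted p 0.00307). With XAV939 it was 0.566, 1.24 and 0.525 CPM, which overlapped DMSO, and the change of 0.65 ± 0.48 was not called (adjusted p 0.381). Of the 10 chondrocyte markers, 3 were called higher after knockdown, 4 under XAV939 and 10 under IWR-1, where 10.4%, 7.57% and 16.2% of all genes were. In the knockdown libraries the osteoblast markers *Bglap2* (log2 fold change 2.12, edgeR, adjusted p 0.0223) and *Phex* (2.32, adjusted p 0.00586) and the fibroblast-list gene *Postn* (2.06, adjusted p 0.0352) also rose. The rest of both lists was not called. Osteoblast markers *Bglap* (2.24), *Sp7* (0.49), *Alpl* (0.36), *Ibsp* (0.12) and *Dmp1* (0.10) had positive values. Of the fibroblast list, *Col1a1* (-0.47), *Col1a2* (-0.22), *Col3a1* (-0.53) and *Pdgfra* (-0.10) had negative values and *Thy1* (0.40) a positive one. The relation of these markers to *Chrdl2* was not tested.

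*Chrdl1* (chrX:143285674-143394263, minus strand), the other chordin-like gene, encodes a BMP4 antagonist. It held 10.6, 13.4 and 14.6 CPM in DMSO and 44.4, 48.2 and 46.7 CPM with IWR-1. The IWR-1 libraries were tightly grouped and clear of the controls, with a log2 fold change of 1.85 ± 0.13 (3.60-fold; edgeR, adjusted p 4.07e-06). XAV939 libraries held 16.8, 14.7 and 15.2 CPM, each just above the highest DMSO library, and the change of 0.28 ± 0.13 was not called (adjusted p 0.165). In the siRNA table it went from 46.1, 26.8 and 48.2 CPM to 72.2, 36.8 and 71.6 CPM. Replicate 2 was the lowest of both groups, the groups overlapped, and the log2 ratio within pairs was 0.65, 0.46 and 0.57. The change of 0.57 ± 0.31 was not called (edgeR, adjusted p 0.232), but was called with the replicate block (0.56, adjusted p 0.00298) and without siTnks/2 replicate 2 (0.83, adjusted p 0.0383).

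*Chrd* (chr16:20731425-20742384, plus strand) encodes chordin, which holds BMP2, BMP4 and BMP7 until it is cleaved by tolloid proteases. It stood at 8.48, 7.92 and 7.01 CPM in DMSO and at 5.04, 5.29 and 5.31 CPM under XAV939. IWR-1 libraries held 3.34, 3.92 and 4.84 CPM. Neither inhibitor group overlapped DMSO. The log2 fold changes were -0.58 ± 0.16 and -0.95 ± 0.16 (edgeR, adjusted p 0.0289 and 0.000892). The XAV939 call was lost in 5 of the 6 fits that left out 1 library, with adjusted p of 0.111 and 0.0616 without DMSO replicates 1 and 2, and 0.0883, 0.0588 and 0.0519 without XAV939 replicates 1, 2 and 3. With knockdown *Chrd* went from 12.6, 9.42 and 12.1 CPM to 8.29, 4.99 and 8.0 CPM. The siTnks/2 libraries were all lower, and the log2 fold change of -0.68 ± 0.21 was not called in edgeR (adjusted p 0.0677) and was called with the replicate block (-0.70, adjusted p 0.00783) and with DESeq2 (-0.68, adjusted p 0.0205). *Chrd* overlaps the opposite-strand coding gene *Thpo*.

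*Nog* (chr11:89300638-89302559, minus strand), the gene of noggin, which seals both receptor-binding faces of BMP ligands, moved little. Its level was 5.55, 5.97 and 4.62 CPM in DMSO and 6.76, 3.64 and 7.59 CPM under XAV939. IWR-1 libraries held 6.19, 6.48 and 6.03 CPM. The XAV939 libraries lay on both sides of the DMSO range, and the IWR-1 libraries lay just above it. The 95% intervals of the log2 fold change were -0.35 to 0.68 and -0.30 to 0.73. With siCtrl it was 10.3, 10.8 and 9.06 CPM and with siTnks/2 13.9, 14.0 and 11.1 CPM, without overlap. The log2 fold change of 0.37 ± 0.13 was not called (edgeR, adjusted p 0.0832), and was called with the replicate block (0.37, adjusted p 0.0205) and without siTnks/2 replicate 3 (0.48, adjusted p 0.0438).

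**Figure D2:**
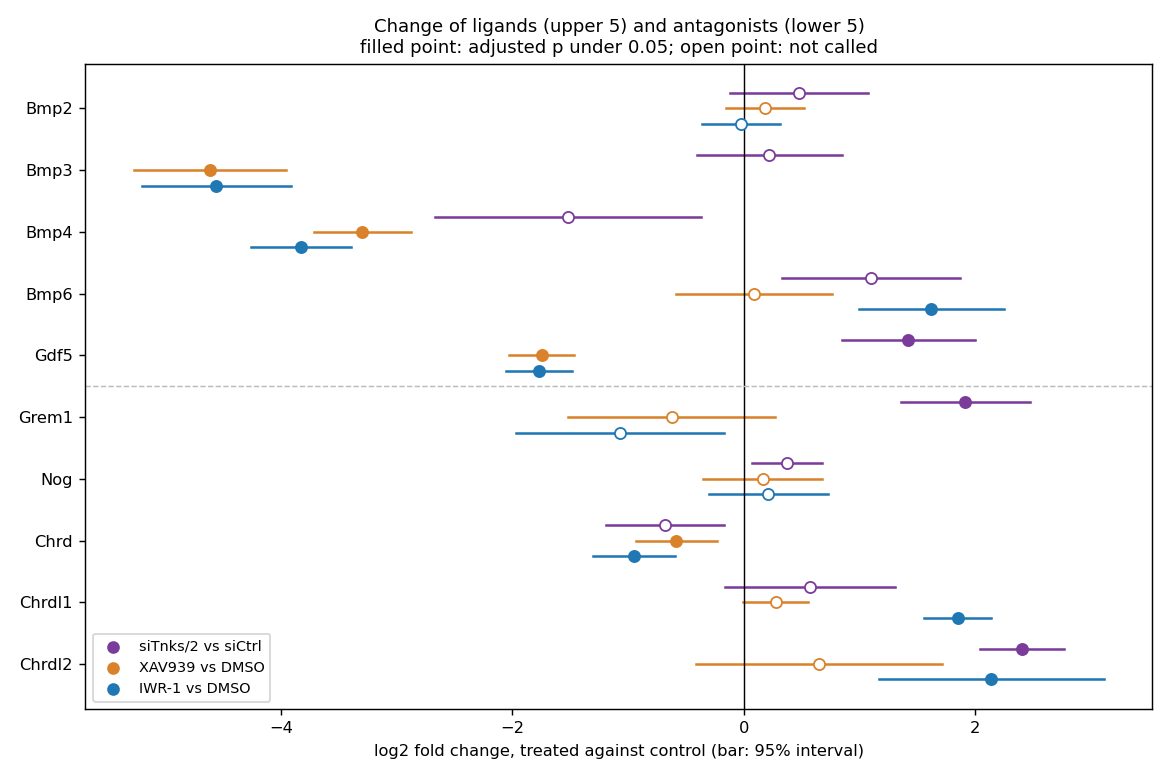
Log2 fold change of each gene (horizontal axis) with its 95% interval in the 3 comparisons with a control, filled where the adjusted p was under 0.05. The inhibitor points of *Bmp3*, *Bmp4* and *Gdf5* lay between -4.61 and -1.75, while the knockdown points of *Gdf5*, *Grem1* and *Chrdl2* lay between 1.42 and 2.41.

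As a description of the balance of transcripts, the levels per kb were summed over the ligands and over the antagonists. The ligand sum was 43.4 ± 5.92 (SD, n = 3) in DMSO, 11.8 ± 0.864 with XAV939 and 11.6 ± 0.750 with IWR-1. The antagonist sum in the same libraries was 36.0 ± 12.3, 26.1 ± 7.92 and 25.8 ± 6.96, and its groups overlapped. In the siRNA table the pattern differed. There the ligand sum was 36.0 ± 1.08 with siCtrl and 33.3 ± 2.73 with siTnks/2, and the antagonist sum was 32.5 ± 7.0 and 89.6 ± 14.1. *Bmp4* and *Gdf5* made up most of the ligand sum and *Grem1* most of the antagonist sum, and sums of transcripts say nothing of the proteins secreted. Other ligands and antagonists are left out. Ligand *Bmp5* was at 20.9 ± 5.52 CPM in DMSO, 15.5 ± 4.10 with XAV939 and 21.8 ± 3.91 with IWR-1. For ligand *Gdf10* the values were 4.84 ± 1.97, 27.4 ± 10.6 and 48.7 ± 21.0 CPM. Modulators outside the members moved in both directions, as given below, so the sums do not describe the whole pathway.

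**Figure D3:**
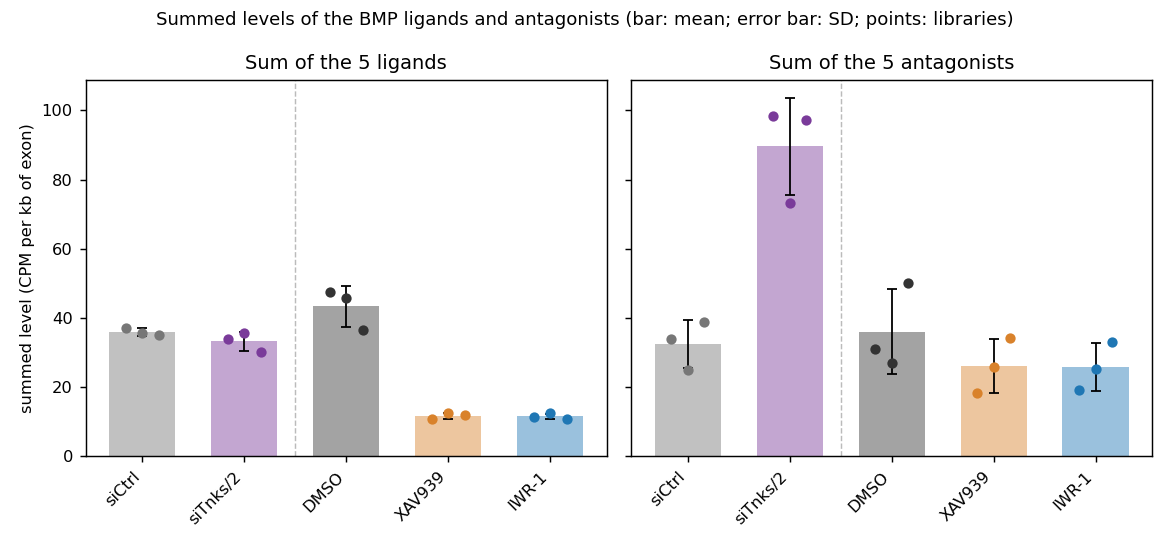
Summed level of the 5 ligands (left) and the 5 antagonists (right) in CPM per kb of merged exons, with bars for the mean of 3 libraries, error bars for the SD and points for libraries. The ligand sum was lower in the inhibitor groups (11.8 and 11.6) than in DMSO (43.4), and the antagonist sum was higher with siTnks/2 (89.6) than with siCtrl (32.5).

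The inhibitors were compared directly, at the same dose and time, for each of the 10 members, with p-values adjusted over all 13873 genes. IWR-1 cultures held more *Bmp6* (log2 difference 1.53 ± 0.28, adjusted p 0.00431), *Chrdl1* (1.57 ± 0.13, adjusted p 4.88e-05) and *Chrdl2* (1.49 ± 0.42, adjusted p 0.0324) than XAV939 cultures in edgeR's test. These 3 higher and 0 lower members stand against 17.6% of all genes called, 7.37% higher and 10.2% lower, and with the replicate block 3 members stood against 30.7%. At an unadjusted p under 0.05, 2 members were lower (*Bmp4* and *Chrd*) and no further member was higher, and DESeq2 called 0 lower. The share of all genes at the unadjusted limit was not taken. The *Chrdl2* call was lost in 5 of the 6 fits that left out 1 library, with adjusted p of 0.0504, 0.136 and 0.0526 without IWR-1 replicates 1, 2 and 3, and 0.112 and 0.0980 without XAV939 replicates 1 and 3. *Bmp4* was lower with IWR-1 than with XAV939 in each library, but the difference of -0.53 (95% interval -0.97 to -0.09) was not called (adjusted p 0.0971). For *Gdf5* the interval was -0.30 to 0.26, for *Nog* -0.46 to 0.56 and for *Bmp2* -0.54 to 0.13. Wider intervals remained for *Bmp3* (-0.93 to 1.05) and *Grem1* (-1.34 to 0.44), and that of *Chrd* was -0.73 to -0.01. None of these 6 differences was called, which does not show that the compounds acted alike.

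The knockdown effect was then set against each inhibitor effect in 1 model over the 15 libraries and 14271 genes, as the knockdown log2 fold change minus that of the inhibitor. Against XAV939, 5 members differed, all in the positive direction, namely *Bmp3* (4.85 ± 0.42), *Gdf5* (3.18 ± 0.28), *Grem1* (2.55 ± 0.54), *Bmp4* (1.79 ± 0.54) and *Chrdl2* (1.77 ± 0.53). Their adjusted p in edgeR's test was 2.68e-05, 2.68e-05, 0.00774, 0.0411 and 0.0391, and 13.5% of all genes were called, 8.07% positive and 5.4% negative. Among 12 fits that left out 1 library, the *Bmp4* call was lost in all except those without DMSO replicate 3 or siTnks/2 replicate 2 (adjusted p 0.0565 to 0.0993 where lost). The *Chrdl2* call was lost in all except those without DMSO replicate 3, XAV939 replicate 2 or siTnks/2 replicate 2 (adjusted p 0.0516 to 0.173 where lost). *Bmp6* was called with the replicate block (1.0, adjusted p 0.0147, against 0.162 without it), a fit with 6 members and 28.2% of all genes called. At the stricter limits 0 members and 0.00701% of all genes were called.

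Against IWR-1, *Bmp3* (4.79 ± 0.41), *Gdf5* (3.20 ± 0.28), *Grem1* (3.0 ± 0.55) and *Bmp4* (2.31 ± 0.55) had a positive difference and *Chrdl1* (-1.26 ± 0.33) a negative one. The adjusted p was 3.62e-06, 3.62e-06, 0.00120, 0.00681 and 0.0129 in edgeR's test, and 24.4% of all genes were called, 13.9% positive and 10.5% negative. Each of these 5 calls was kept in all 12 fits that left out 1 library. *Bmp2* was called with the replicate block alone (0.50, adjusted p 0.0424), where 6 members and 36.3% of all genes were called. At the stricter limits 2 members and 0.399% of all genes were called. Without the block, *Gdf5* was the single member called in both tables with opposite signs. With the block, *Grem1* was also called with opposite signs, higher with knockdown and lower with both inhibitors. For *Bmp4* the inhibitor and knockdown values had the same sign and differed in size. The tables differ in controls, in the time of treatment as far as it is known, and in delivery, so the agent and the table cannot be told apart.

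Beyond the 10 members, 58 further genes of the pathway were examined. In the knockdown 50 of them were tested, with 11 called higher and 6 lower. With XAV939 and IWR-1 48 were tested, with 7 higher and 8 lower, and with 12 higher and 15 lower. These shares may be read against the background percentages above, and the median log2 fold change of the list was 0.11, -0.06 and -0.07. With the replicate block, 25 were called with XAV939, 9 higher and 16 lower, against 33.4% of all genes.

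Of the other ligands, *Gdf10* (also called BMP3B) rose in all 3 comparisons. From 2.59, 5.68 and 6.25 CPM in DMSO it reached 17.6, 25.8 and 38.7 CPM under XAV939. IWR-1 libraries held 35.8, 37.3 and 72.9 CPM. The log2 fold changes were 2.50 ± 0.40 and 3.33 ± 0.41 (edgeR, adjusted p 0.00217 and 0.000117), and the knockdown value was 0.41 ± 0.08 (adjusted p 0.0201). *Bmp8b*, a ligand best known from germ cells and brown fat, was tested in the siRNA table alone and fell there from 38, 35 and 49 counts to 1, 2 and 8 counts. Its fitted log2 fold change was -3.36 ± 0.50 (edgeR, adjusted p 0.00874). *Bmp8b* overlaps the coding genes *Oxct2b* on its own strand and *Ppie* on the opposite one, so its counts are uncertain. The knockdown call of *Gdf10* was lost without siCtrl replicate 1 (adjusted p 0.0797), siCtrl replicate 2 (0.0618) or siTnks/2 replicate 1 (0.0655).

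Other extracellular modulators moved in both directions, with 6 higher and 2 lower of 16 with knockdown, 1 higher and 5 lower of 17 with XAV939, and 2 higher and 10 lower of 17 with IWR-1. Over all genes tested, 10.4% were called higher and 7.61% lower with knockdown, 7.57% and 9.85% with XAV939, and 16.2% and 20.2% with IWR-1. *Bmper*, the gene of a crossveinless-type protein that binds BMPs, and *Smoc1*, a matricellular inhibitor of BMP signalling, both rose with knockdown (0.68 ± 0.08 and 0.66 ± 0.16) and fell with XAV939 (-0.79 ± 0.16 and -0.48 ± 0.13) and IWR-1 (-1.79 ± 0.16 and -1.76 ± 0.14). The difference between knockdown and inhibitor was called for both genes against both inhibitors, at 1.49 and 1.15 against XAV939 and 2.48 and 2.44 against IWR-1 (edgeR, adjusted p between 1.98e-06 and 0.00381). Both genes were picked for this comparison because their calls had opposite signs in the 2 tables. A called difference therefore largely follows from that choice and adds little to the separate calls. *Smoc2*, its paralog, rose with knockdown (1.32 ± 0.21) and IWR-1 (1.62 ± 0.17), and was at 0.51 ± 0.17 with XAV939 (adjusted p 0.0570, and 0.00121 with the replicate block, 0.0286 in DESeq2 and 0.0446 with upper-quartile scaling).

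Follistatin (*Fst*) and the follistatin-like *Fstl3* bind activins and some BMPs. *Fst* fell with knockdown from 63.1, 68.8 and 64.8 CPM to 21.6, 11.8 and 24.1 CPM (-1.77 ± 0.24, edgeR, adjusted p 0.00741). With IWR-1 it fell by 0.42 ± 0.13 (adjusted p 0.0290), and with XAV939 the value was -0.32 ± 0.13 (adjusted p 0.113, and 0.0433 with the replicate block). *Fstl3* fell in all 3 comparisons, by 0.78, 1.70 and 2.11 on the log2 scale. The tolloid protease gene *Tll2* dropped from 25, 12 and 16 counts in DMSO to 1, 0 and 1 counts with IWR-1 (-4.51 ± 0.65, adjusted p 0.000324), from a low level.

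Of 11 receptor and co-receptor genes tested, 1 was called higher with knockdown, 1 higher and 1 lower with XAV939, and 1 higher and 2 lower with IWR-1. The shares of all genes called higher and lower were 10.4% and 7.61%, 7.57% and 9.85%, and 16.2% and 20.2%, in the same order. *Bmpr1a*, a type I receptor, was called in none of the 3 comparisons (-0.13 ± 0.11, -0.39 ± 0.12 and -0.25 ± 0.12), although the replicate block gave adjusted p of 0.00474 with XAV939 and 0.0302 with IWR-1, and the XAV939 change was also called in DESeq2 (adjusted p 0.0247) and with no filter on low counts (0.0457). *Bmpr2*, the type II receptor, was called with XAV939 (-0.65 ± 0.19, adjusted p 0.0372), and the value was -0.47 ± 0.19 with IWR-1 (adjusted p 0.0762, and 0.00471 with the block) and 0.21 ± 0.12 with knockdown (adjusted p 0.262, and 0.0266 with the block). *Bambi*, a decoy receptor without a kinase domain, rose in all 3 comparisons, by 0.76 ± 0.17 after knockdown, 1.37 ± 0.20 under XAV939 and 2.04 ± 0.20 under IWR-1 (edgeR, adjusted p 0.0271, 0.00142 and 3.10e-05).

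Of 16 transducers and direct targets, 3 were called higher and 3 lower with knockdown, 4 higher and 2 lower with XAV939, and 7 higher and 2 lower with IWR-1. Shares over all genes, higher and lower, were 10.4% and 7.61% with knockdown, 7.57% and 9.85% with XAV939, and 16.2% and 20.2% with IWR-1. Among the targets, *Id1* and *Id3*, immediate SMAD targets that encode inhibitors of basic helix-loop-helix factors, moved in opposite directions in the 2 tables. *Id1* was 29.8, 32.9 and 22.3 CPM in DMSO. Under XAV939 it rose to 66.2, 74.0 and 65.7 CPM, and IWR-1 libraries held 68.2, 53.8 and 52.9 CPM. In the siRNA table it fell from 76.4, 80.4 and 69.2 CPM to 53.9, 53.3 and 47.7 CPM. No treated group overlapped its control, and the log2 fold changes were 1.27 ± 0.15, 1.04 ± 0.15 and -0.54 ± 0.08 (edgeR, adjusted p 0.000440, 0.000374 and 0.00862). *Id3* showed the same directions, at 0.72 ± 0.13, 0.73 ± 0.13 and -0.63 ± 0.09. Of their family, *Id4* rose with knockdown (1.04 ± 0.16, edgeR, adjusted p 0.0106) and *Id2* was at 0.0024 ± 0.10 (adjusted p 0.990). In DMSO *Id4* held 6.01, 5.73 and 4.65 CPM, with XAV939 7.28, 6.15 and 8.39 CPM, and with IWR-1 14.0, 12.1 and 10.8 CPM. All its inhibitor libraries were above DMSO, so *Id4* did not share the opposite directions of *Id1* and *Id3*. Mean *Id2* was 52.4 ± 5.33 CPM (SD) in DMSO, 54.1 ± 10.1 CPM with XAV939 and 57.5 ± 6.32 CPM with IWR-1. The knockdown effect minus the inhibitor effect was -1.81 for *Id1* and -1.34 for *Id3* against XAV939, and -1.57 and -1.36 against IWR-1, all called (edgeR, adjusted p between 4.30e-05 and 0.000260). *Id1* and *Id3* were also picked for this comparison by their opposite signs, so these calls add little to the separate ones.

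*Smad6*, an inhibitory SMAD, was not called in any comparison (-0.64 ± 0.24 with knockdown, adjusted p 0.112), but passed with the replicate block (adjusted p 0.00477) and with DESeq2 (0.0460) in the knockdown. *Smad7*, the other inhibitory SMAD, was called lower with knockdown (-0.56 ± 0.14, edgeR, adjusted p 0.0373). Its mean level was 26.4 ± 3.28 CPM (SD) in DMSO, 19.2 ± 4.05 CPM with XAV939 and 17.9 ± 2.29 CPM with IWR-1. *Dlx5*, a homeobox target in bone and cartilage, rose with XAV939 (1.38 ± 0.20) and IWR-1 (1.83 ± 0.20), and was at 0.33 ± 0.16 with knockdown (adjusted p 0.187, and 0.0403 without siTnks/2 replicate 2).

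Several of these pathway calls were close to the threshold and depended on which libraries were fitted, with the sign of the change kept in each fit. With knockdown, the calls of *Bambi*, *Fstl3*, *Smoc1* and *Smoc2* were lost without siCtrl replicate 1 (adjusted p 0.0536 to 0.117) or without siCtrl replicate 3 (0.0531 to 0.105), those of *Fstl3* and *Smoc1* without siCtrl replicate 2 (0.0684 and 0.0957), and those of *Bambi*, *Fstl3* and *Smoc1* without siTnks/2 replicate 1 (0.0607 to 0.0691). With XAV939, the *Smoc1* call was lost without DMSO replicates 1 or 2 (0.129 and 0.0638) and XAV939 replicates 2 or 3 (0.0956 and 0.0693). The *Bmpr2* call was lost without DMSO replicates 1 or 3 (0.0702 and 0.0942) and XAV939 replicates 1 or 2 (0.0875 and 0.109). The IWR-1 call of *Fst* was lost without DMSO replicates 1 or 2 (0.0754 and 0.0670) and IWR-1 replicates 2 or 3 (0.0928 and 0.0742). Calls were gained without DMSO replicate 2 or XAV939 replicate 3 for *Bmpr1a* (0.0483 and 0.0348) and *Smoc2* (0.0157 and 0.0369) with XAV939, and without DMSO replicate 2 for *Bmpr2* with IWR-1 (0.0395). The XAV939 calls of *Smoc1* and *Bmpr2* were also lost when DMSO and XAV939 were fitted alone (0.0589 and 0.0749), and that of *Smoc1* with upper-quartile scaling (0.0507). When DMSO and IWR-1 were fitted alone, *Bmpr2* was called lower with IWR-1 (-0.47, edgeR, adjusted p 0.0489).

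**Figure D4:**
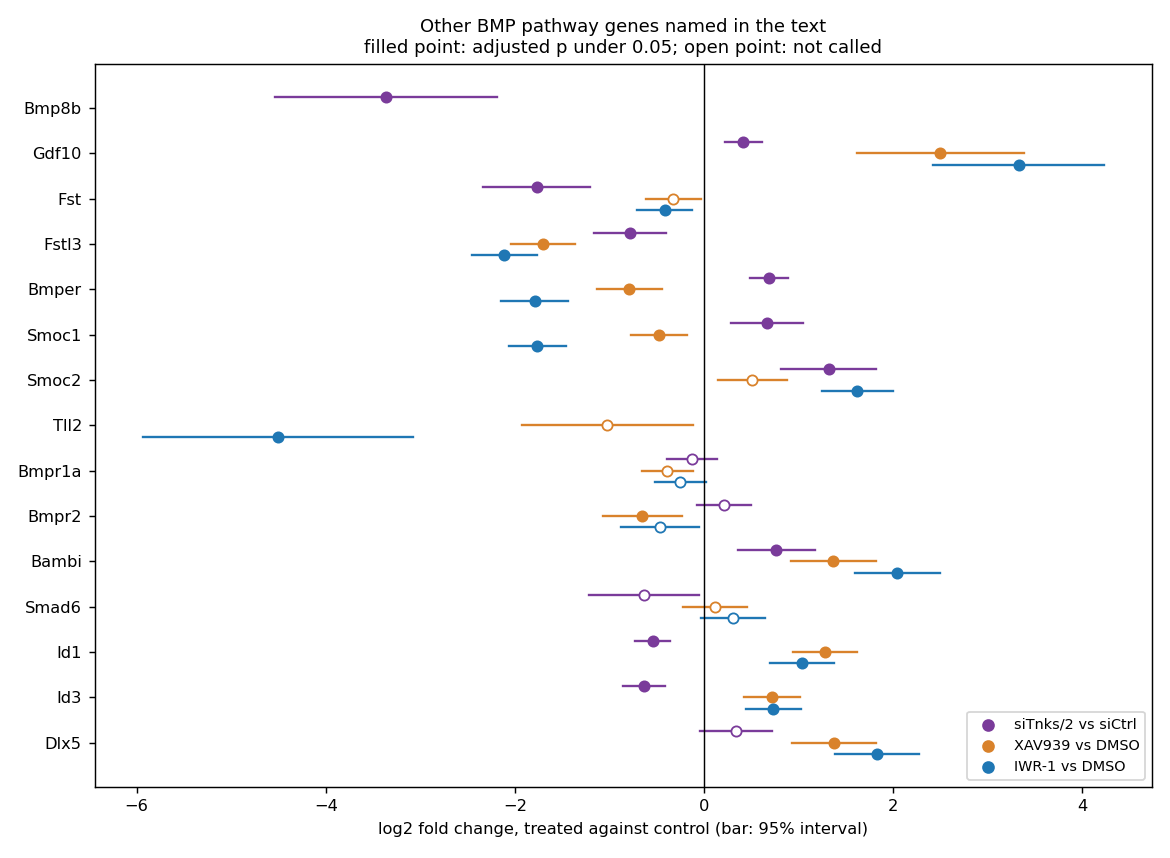
Log2 fold change (horizontal axis) with its 95% interval for 15 other BMP pathway genes in the 3 comparisons with a control, filled where the adjusted p was under 0.05; *Bmp8b* was not tested with the inhibitors and *Tll2* not with knockdown. *Bmper* and *Smoc1* lay above 0 with knockdown and below 0 with both inhibitors, and *Id1* and *Id3* the reverse.

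To place the members among all genes, each was matched to the genes whose levels most resembled its own over the 15 libraries, by the root mean square difference of log2(CPM + 1) centred on the controls of each table. The nearest to *Bmp4* was *Krt19* (0.41), to *Gdf5* *Phospho1* (0.27) and *Gpr146* (0.36), and to *Grem1* *Enpep* (0.52) and *Slc40a1* (0.53). *Bmp3* lay nearest to *Mfsd9* (0.22) and *Mxi1* (0.25), *Bmp6* to *Igf2os* (0.19) and *Slc1a1* (0.20), and *Bmp2* to *Ivns1abp* (0.10) and *Furin* (0.11). For the remaining antagonists the nearest were *Bcan* (0.28) and *Sfrp5* (0.32) to *Chrdl2*, *Ankrd44* (0.24) and *Akap6* (0.26) to *Chrdl1*, *Mex3d* (0.14) and *Kank2* (0.14) to *Chrd*, and *2810013P06Rik* (0.12) and *Triqk* (0.13) to *Nog*. A small difference for a gene that moves little, such as *Bmp2* or *Nog*, is shared with many genes.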

How the data were processed

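RNA from 15 cultures (3 per group) was made into poly(A)-selected stranded libraries (TruSeq Stranded mRNA). Per the submitters' processing notes and the study's methods, the authors trimmed reads with Trimmomatic 0.32, mapped them to mm10 with TopHat2 2.0.13 and counted them per gene with HTSeq 0.6.1p1. The deposited values are these raw counts, without normalization, and the annotation and strand setting of the counting were not given in the sources used here. Of 24134 Entrez gene IDs, 24051 matched a mouse symbol and 83 did not. Library totals lay between 26857070 and 36615194 counts, and reads carry no molecular identifiers.

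The count test was the quasi-likelihood F test of edgeR 4.0.16 under R 4.3.3 (filterByExpr, TMM, prior count 0.125, Benjamini-Hochberg over all genes tested, called at an adjusted p under 0.05). The siRNA table was fitted with 2 groups, the drug table with 3 groups, and the differences between effects with all 5 groups. CPM values use TMM-scaled library sizes. Libraries were assigned to groups by their column names. The steps were tested on simulated data.

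Same replicate numbers, taken from the labels, were checked for pairing. After removal of the group means, same-numbered libraries correlated at 0.487 to 0.554 in 3 siRNA pairs and 0.153 to 0.680 in 9 drug pairs, all above the limit of 0.1, and other pairs reached 0.137 and 0.477. The blocked fit is therefore given wherever it changes a call.

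The members and the pathway and marker lists were chosen with earlier results of these data known. Named pathway genes were those called in all 3 comparisons with a control, the 3 with the largest change among those called in each, and *Bmpr1a*, *Bmpr2*, *Id1* and *Smad6*. Values of *Bmp5*, *Id2*, *Id4* and *Smad7* were given in addition, outside this rule. For each member the 2 genes with the most similar levels were also named, except 1 that is not reported here. The marker lists covered chondrocytes, the superficial zone or synovial lining (median sum 843, 853 and 470 CPM in DMSO, XAV939 and IWR-1, 222 in siCtrl and 324 in siTnks/2), fibroblasts, osteoblasts (72.7, 103, 99.8, 158 and 292), leukocytes (13.9, 14.1, 7.77, 5.14 and 5.31), endothelium (2.38, 1.39, 0.843, 1.26 and 1.57) and skeletal muscle (0.915, 0.943, 1.33, 5.23 and 4.55). Alternatives were RLE and upper-quartile scaling, no filter, at least 10 counts in every library, DESeq2 1.42.0, a replicate block, separate fits of each pair of groups, limits of a fold above 3 with an adjusted p under 1e-05, a prior count of 2, and leaving out each library.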

Additional observations from a re-analysis of the deposited data

Results flagged for a closer look

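The 18 values below stand out because the effect of the knockdown and the effect of an inhibitor on the same gene differed in edgeR's test of the difference itself, at an adjusted p under 0.05 over 14271 genes. They come from the 10 members and from *Bmper*, *Smoc1*, *Id1* and *Id3*, which were picked because their calls had opposite signs in the 2 tables. They are not all the pathway genes that differed. Of the 51 pathway genes tested outside the members, 8 were called positive and 7 negative against XAV939, and 10 and 10 against IWR-1. Over all genes tested these shares were 8.07% and 5.4%, and 13.9% and 10.5%. Each of the 18 values is the knockdown log2 fold change minus that of the inhibitor, and the agent cannot be told apart from the table it was measured in.

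Against XAV939, the ligands differed by 4.85 (*Bmp3*), 1.79 (*Bmp4*) and 3.18 (*Gdf5*), the antagonists by 2.55 (*Grem1*) and 1.77 (*Chrdl2*), and other modulators by 1.49 (*Bmper*) and 1.15 (*Smoc1*). The differences were negative for *Id1* (-1.81) and *Id3* (-1.34).

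Against IWR-1, the ligands differed by 4.79 (*Bmp3*), 2.31 (*Bmp4*) and 3.20 (*Gdf5*), *Grem1* by 3.0, *Bmper* by 2.48 and *Smoc1* by 2.44. Here *Chrdl1* had a difference of -1.26, *Id1* one of -1.57 and *Id3* one of -1.36.

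For *Gdf5*, *Bmper*, *Smoc1*, *Id1* and *Id3* the knockdown and the inhibitors were each called in opposite directions. With the replicate block this also held for *Grem1*. For *Bmp4* the signs were the same.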

How the results depend on the processing

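With 3 libraries per group, calls near the threshold depended on the fit. Under the limits of a fold above 3 and an adjusted p under 1e-05, 0 members and 0 pathway genes were called with knockdown and with XAV939, 4 members (1 higher, 3 lower) and 3 pathway genes with IWR-1, 0 members in IWR-1 against XAV939, and 0 and 2 members in the difference of knockdown from XAV939 and from IWR-1. With the replicate block, 9 members were called with knockdown and 25 pathway genes with XAV939, and beyond the blocked values printed above it changed no other call of a member or a named pathway gene. *Bmp5*, *Id2*, *Id4* and *Smad7* were not followed gene by gene in the alternative fits. DESeq2 called 5 members with knockdown, and requiring 10 counts per library gave 3 in the difference from XAV939, in which 8 of the 10 members (not *Bmp3* and *Chrdl2*) were then tested. Leaving out 1 library gave 2 to 5 members and 6 to 19 pathway genes with knockdown, and 3 to 5 members in the difference from XAV939. For the fits with 10 counts per library or with a library left out, the share of all genes called was not taken.

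Values that changed sign were small, and none was called. With upper-quartile scaling *Bmp2* with IWR-1 was 0.0021. The other sign changes came from fits that left out 1 library and are given as ranges. *Bmp2* with IWR-1 ran from -0.099 to 0.032, *Bmp6* with XAV939 from -0.28 to 0.27, *Nog* with XAV939 from -0.053 to 0.42 and *Smad6* with XAV939 from -0.050 to 0.19. In IWR-1 against XAV939, *Bmp3* ran from -0.31 to 0.25, *Gdf5* from -0.10 to 0.040 and *Nog* from -0.20 to 0.25. *Bmp3* with knockdown ran from -0.12 to 0.38. In the difference from XAV939, *Nog* ran from -0.019 to 0.42 and *Chrd* from -0.22 to 0.11, and *Chrdl2* in that from IWR-1 ran from -0.33 to 0.57. The causes were not tested. The prior count of 2 and the alternatives for the named pathway genes were chosen after seeing the data. Low depth limits *Bmp3* with the inhibitors, at 3 to 6 counts per library.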
